A study of Mus musculus with 8 samples.

Results

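The genes described here encode 9 mRNA-binding proteins, of the 53801 genes in a count table of sorted mouse Paneth cells. They are the 3 Rbms genes Rbms1, Rbms2 and Rbms3, the 3 Igf2 mRNA-binding proteins Igf2bp1, Igf2bp2 and Igf2bp3, the let-7 inhibitors Lin28a and Lin28b, and the Musashi gene Msi2. They were chosen by name, from these data, with the difference between the genotypes already known, so their fold changes between genotypes are a description and no test of them. Paneth cells, the antimicrobial secretory cells of the crypt base, were sorted as EpCAM+ Cd24+ cells from 4 β-catGOF; Mll1+/- mice (controls) and 4 β-catGOF; Mll1-/- mice (knockouts). Mll1, encoded by Kmt2a, is a histone H3 lysine 4 methyltransferase. All 8 mice carried the allele for the stabilising deletion of β-catenin exon 3, a background the study calls Wnt-high. The controls were thus heterozygous for Mll1 on that background rather than wild type. Both deletions were driven by Lgr5-EGFP-IRES-CreERT2, which is active in Lgr5+ stem cells in a mosaic manner, after tamoxifen (1 mg) on 3 days, and cells were taken at day 10. The mice were a few weeks old and of both sexes. The paragraph of the study's methods on sorting names Mll1 flox mice without the β-catenin allele, and the genotypes used here are those of the sample labels.

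Oncofetal RNA-binding proteins are made in the embryo, decline in most adult tissues and return in many tumours. Lin28a and Lin28b block the maturation of the let-7 miRNAs, and let-7 in turn represses mRNAs that carry matches to its seed in their 3' UTR, those of Lin28 and Igf2bp genes among them. Igf2bp proteins bind and stabilise mRNAs such as that of Myc, in part through m6A, and Msi2 is a translational regulator of intestinal stem and progenitor cells. Rbms proteins carry a pair of RNA recognition motifs and bind AU-rich single-stranded sequence.

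Rbms1 was the gene of the set that separated the genotypes, about 7.4-fold higher in the knockouts. Rbms3, its paralogue, was fitted 3.2-fold higher without passing the test. Rbms2, the Igf2bp genes and Msi2 did not pass the test and their groups overlapped, and Lin28a and Lin28b were at or near 0 counts in most libraries.

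The 8 libraries held between 13037832 and 14380240 counts. Knockout 3 stood apart, with 19662 genes counted at least once against 22623 to 26074 in the others. Its mitochondrial counts were 2.04% against 3.26% to 8.78%. It held 1037 Xist and 148 Y-linked counts, where the other libraries with many Xist counts (1055 to 2697) held 6 to 22 Y-linked counts. The Paneth markers summed to between 283300 and 569200 CPM (counts scaled to a common library size) in the controls and between 268100 and 799000 in the knockouts, the highest value being that of knockout 3. Counts of Kmt2a over the whole gene lay between 268 and 719 in the controls and between 328 and 523 in the knockouts (log2 fold change -0.06, SE 0.24, edgeR quasi-likelihood adjusted p = 0.9948). Counts over a whole gene do not separate the exons that recombination removes, so they do not check the genotype labels.

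Rbms1 (ENSMUSG00000026970) lies on chromosome 2 at chr2:60750193-60963192 of GRCm38, minus strand, and no other gene shares its exon bases. The control libraries 1 to 4 held 36, 15, 29 and 37 counts and the knockout libraries 319, 348, 87 and 280. On the normalized scale the controls were at 2.26, 1.19, 2.61 and 2.93 CPM and the knockouts at 19.01, 20.0, 10.25 and 17.0 CPM. The groups did not overlap, and the lowest knockout library, knockout 3, was still above the highest control. The means were 2.25 ± 0.754 (SD, n = 4) and 16.6 ± 4.40 CPM (SD, n = 4), or 18.7 ± 1.53 CPM (n = 3) for the knockouts without knockout 3. The fitted log2 fold change was 2.88 (SE 0.33, edgeR quasi-likelihood adjusted p = 0.002535). It was 1 of the 7 members that passed the filter on low counts and the single one called, which took an adjusted p no larger than 0.05 together with a log2 change no smaller than 0.5. In the background, 21 of the 13439 genes tested were called higher (0.156%), 25 were called in either direction (0.186%), and 348 had every knockout above every control (2.59%). Rbms1 was at rank 9 by p and at rank 47 by the size of the fold change.

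Because the samples are bulk RNA, a change in RNA per cell and a change in the share of cells that carry it cannot be told apart. The 17 stromal markers listed, such as Col1a1 and Lum, summed to between 1.98 and 3.09 CPM in the controls and between 1.18 and 2.43 CPM in the knockouts. None of the 17 passed the filter on low counts, and 6 had at most 3 counts in every library. Immune markers summed to between 4.75 and 15.15 CPM in the controls and between 2.373 and 13.58 CPM in the knockouts. Endothelial markers summed to between 3.563 and 6.538 CPM and between 4.435 and 6.362 CPM. Enteric neuron and glia markers summed to between 3.263 and 8.011 CPM and between 4.588 and 7.894 CPM. Of these lists 2, 1 and 3 markers were tested, and none was called by edgeR. Enteroendocrine markers, from cells that a Cd24 gate also takes, summed to between 949.2 and 1987 CPM in the controls and between 84.1 and 1897 CPM in the knockouts, and all 15 were fitted lower (median on the log2 scale -1.43). None of those 15 was called by edgeR, 3 were by DESeq2, and 9 were lower at an unadjusted p under 0.05. Tuft markers, of the other Cd24+ cell, summed to between 220.3 and 726.3 CPM in the controls and between 134.4 and 474.2 CPM in the knockouts, with 8 of 9 tested fitted lower. The 15 proliferation genes were all fitted higher (median 0.56), with none called by edgeR, 0 by DESeq2, and 4 at an unadjusted p under 0.05. Of the 18 Paneth, 14 goblet and 10 stem cell markers tested, edgeR called none, with medians of -0.10, 0.16 and -0.26, and DESeq2 called 1, a stem cell marker. At an unadjusted p under 0.05 were 0 Paneth markers, 2 goblet markers, both lower, and stem cell markers of which 2 were higher and 3 lower. Enterocyte markers summed to between 129.5 and 309.1 CPM in the controls and between 88.6 and 246.4 CPM in the knockouts, and 5 of the 7 tested were fitted lower (median -0.72), 3 of them at an unadjusted p under 0.05, with none called by edgeR and 1 by DESeq2. The part of these cells in the Rbms1 difference was not tested.

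**Figure D1:**
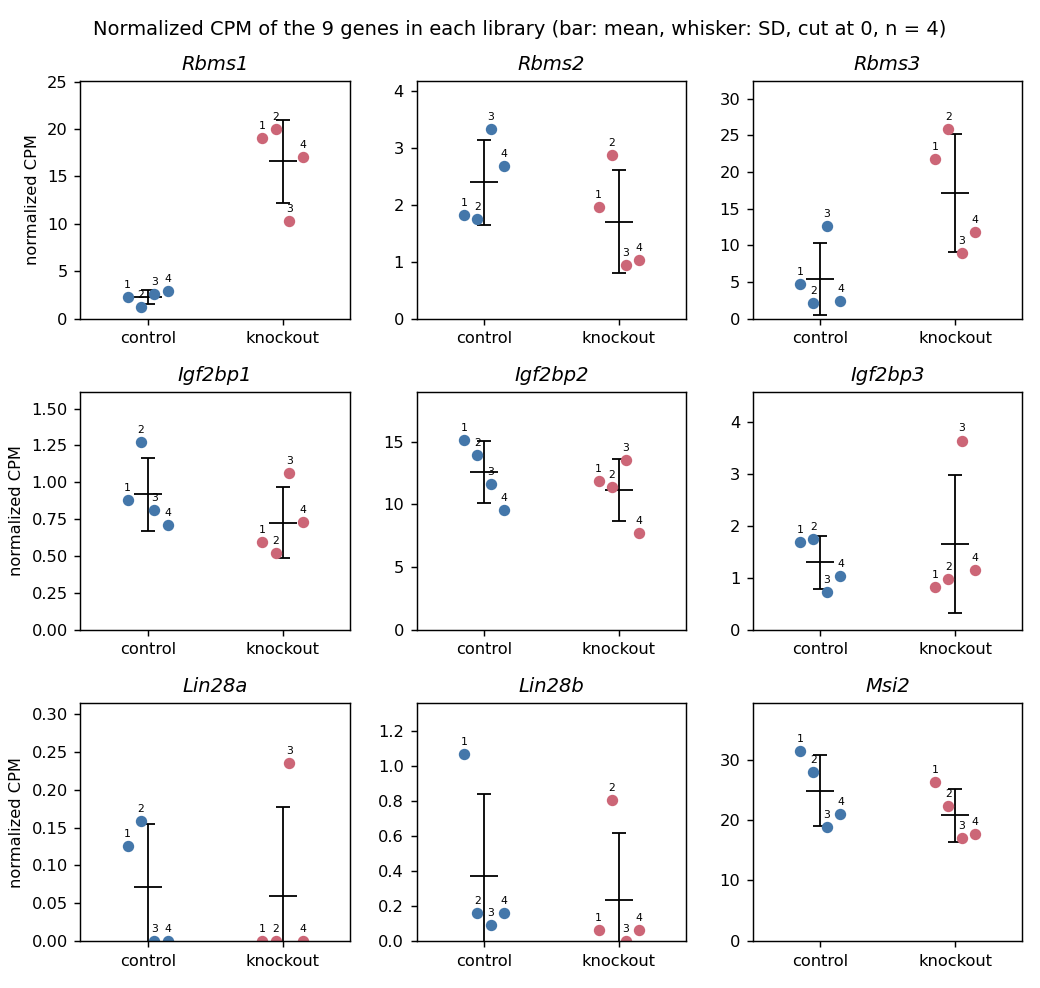
Normalized CPM (y axis, linear, a separate scale for each gene) of the 9 genes in the 4 control and 4 knockout libraries. Points are libraries with their replicate number, bars are means and whiskers SD, cut at 0. The 4 Rbms1 knockout libraries lie between 10.25 and 20.0 CPM, above all controls, and the other genes overlap.

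Rbms3 (ENSMUSG00000039607) spans 1057.2 kb of chromosome 9, at chr9:116572746-117629913 on the minus strand, on the chromosome of Kmt2a and 71.7 Mb from it. It had 75, 27, 140 and 30 counts in the controls and 366, 450, 76 and 195 in the knockouts, which is 4.71, 2.15, 12.6 and 2.38 CPM against 21.8, 25.9, 8.95 and 11.9 CPM. Control 3 was above knockouts 3 and 4, and knockouts 1 and 2 were above every control. The means were 5.46 ± 4.90 and 17.1 ± 8.04 CPM (SD, n = 4 each), 19.9 ± 7.23 CPM (n = 3) for the knockouts without knockout 3, and the fitted log2 fold change was 1.66 (SE 0.54, edgeR quasi-likelihood adjusted p = 0.4744). Without control 3, the highest control, it was 2.47 (SE 0.45, adjusted p = 0.1506). It was, with Rbms1, 1 of 2 members with an unadjusted p under 0.05, which 924 of the genes tested had in either direction (6.88%). Without a filter on low counts the fit called Rbms3 (log2 fold change 1.67, SE 0.40, adjusted p = 0.03301). That fit called 221 of 37039 genes higher (0.597%). DESeq2 gave an adjusted p of 0.117 for Rbms3 and 9.443e-15 for Rbms1, and called 100 genes higher (0.744%).

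The libraries with many Y-linked counts were those with the most Rbms3. Summed over 4 Y-linked genes, controls 1 to 4 held 14, 22, 881 and 6 counts and knockouts 1 to 4 held 1243, 1375, 148 and 6. Within the controls Rbms3 was highest in control 3, and within the knockouts in knockouts 1 and 2. In a fit of genotype and the Y-linked sum, a comparison chosen after these values were seen, Rbms3 had a slope of 0.26 on the log2 scale for each unit of log2 (Y-linked CPM + 1) (SE 0.07, edgeR quasi-likelihood adjusted p = 0.9999). None of the 7 members was called on that slope, and 4 of the 13439 genes were called (0.0298%). At an unadjusted p under 0.05 was 1 of the 7, Rbms3, and 231 of all genes tested (1.72%). In the same fit the genotype difference was 1.34 (SE 0.38, adjusted p = 0.5403) for Rbms3 and 2.81 (SE 0.36, adjusted p = 0.01622) for Rbms1. Rbms1 was low in control 3 and high in knockout 4, which had 881 and 6 Y-linked counts.

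**Figure D2:**
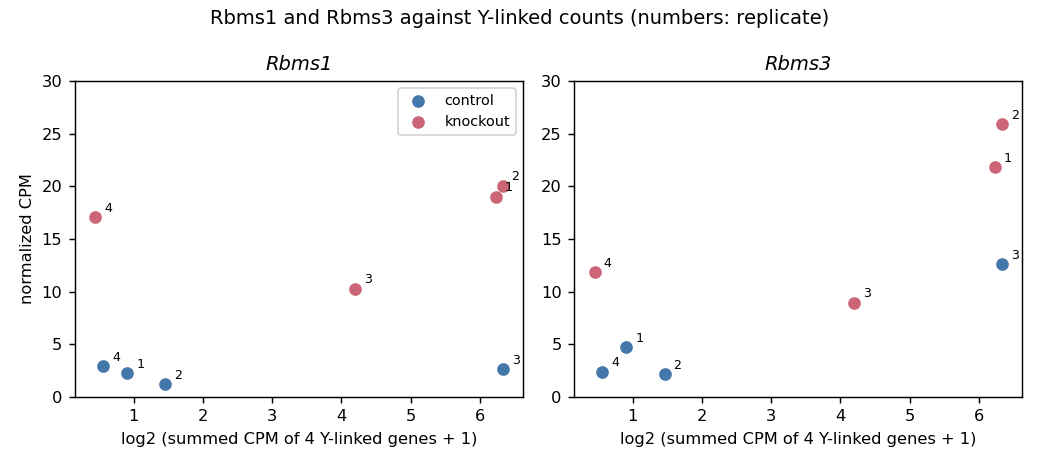
Normalized CPM (y axis) of Rbms1 and Rbms3 against the log2 of the summed CPM of 4 Y-linked genes plus 1 (x axis) in the 8 libraries, with replicate numbers. Rbms3 is at 12.6, 21.8 and 25.9 CPM in the 3 libraries at the right, and Rbms1 is split by genotype at both ends of the axis.

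Rbms2 (ENSMUSG00000040043), at chr10:128131558-128180297 on the minus strand, was fitted lower without passing the test. Its libraries were at 1.82, 1.75, 3.33 and 2.69 CPM in the controls and at 1.97, 2.88, 0.943 and 1.03 CPM in the knockouts, and the groups overlapped. The log2 fold change was -0.47 (SE 0.46, adjusted p = 0.9393), on 8 to 50 counts a library.

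The composition of the Rbms family was compared as a share within each library, free of the scaling between libraries. Per base of gene length, Rbms1 took 32.5%, 26.8%, 19.6% and 39.2% of the family in controls 1 to 4 and 57.8%, 53.9%, 63.6% and 69.4% in knockouts 1 to 4. The share of Rbms2 was 31.9%, 47.9%, 30.6% and 44.02% in the controls and 7.30%, 9.45%, 7.14% and 5.15% in the knockouts. Neither share overlapped between the groups. The level of Rbms2 itself did overlap, as given above, and its share is lower where the counts of Rbms1 and Rbms3 that enter the same total are higher, so it is no separate measure of Rbms2. The share of Rbms3 did overlap, with means of 31.9% ± 14.2 and 31.5% ± 5.16 (SD, n = 4 each). In counts not divided by length, the Rbms1 share ran from 14.1% (29 of 206 counts, 95% Wilson interval 9.98% to 19.5%) to 36.6% (37 of 101, 27.9% to 46.4%) in the controls and from 41.0% (348 of 848, 37.8% to 44.4%) to 56.9% (280 of 492, 52.5% to 61.2%) in the knockouts. These intervals cover counting error only, since reads amplified by PCR without molecular identifiers are not independent molecules. The summed level of the family was 10.1 ± 5.84 CPM in the controls and 35.4 ± 12.9 CPM in the knockouts (SD, n = 4 each). The shares rest on the same genotype contrast and are likewise a description.

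**Figure D3:**
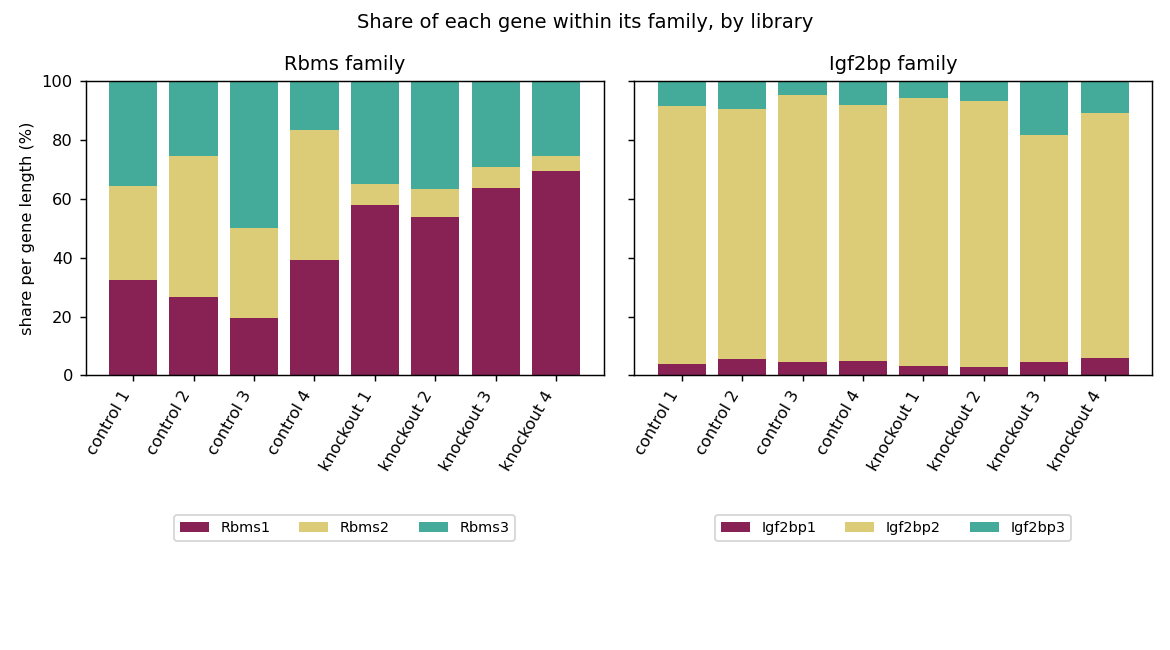
Share (y axis, percent of the family's counts per base of gene length) of each gene of the Rbms and Igf2bp families in the 8 libraries (x axis). Rbms1 takes 19.6% to 39.2% in the controls and 53.9% to 69.4% in the knockouts, while Igf2bp2 takes most of its family in every library.

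The promoters of the Rbms genes are shown as those of the family that holds Rbms1, the member called between the genotypes. Each line gives 300 bases, from 250 before to 50 after a RefSeq start on GRCm38.p6, all on the minus strand and written 5′ to 3′. Capitals mark the Tcf/Lef letters CTTTGA and the GC box letters GGGCGG, searched on both strands, and no match of one overlapped a match of the other. Windows 1 and 2 of Rbms1 are at chr2:60963155-60963454 and chr2:60881389-60881688, and window 1, the farther upstream of the 2 windows of each, is at chr9:117629864-117630163 for Rbms3 and at chr10:128180248-128180547 for Rbms2.
Rbms1 start 1: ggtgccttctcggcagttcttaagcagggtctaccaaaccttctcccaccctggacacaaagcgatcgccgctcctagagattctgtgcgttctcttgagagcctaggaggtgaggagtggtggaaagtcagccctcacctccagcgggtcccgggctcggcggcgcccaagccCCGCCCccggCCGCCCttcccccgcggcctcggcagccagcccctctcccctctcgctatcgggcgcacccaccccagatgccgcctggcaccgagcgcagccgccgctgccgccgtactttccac
Rbms1 start 2: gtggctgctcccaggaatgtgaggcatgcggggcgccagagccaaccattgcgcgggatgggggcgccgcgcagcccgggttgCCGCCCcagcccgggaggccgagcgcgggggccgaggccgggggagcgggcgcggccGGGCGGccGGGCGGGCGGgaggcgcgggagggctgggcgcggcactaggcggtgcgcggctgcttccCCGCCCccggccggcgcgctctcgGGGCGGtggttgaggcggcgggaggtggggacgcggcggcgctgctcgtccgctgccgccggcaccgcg
Rbms3 start 1: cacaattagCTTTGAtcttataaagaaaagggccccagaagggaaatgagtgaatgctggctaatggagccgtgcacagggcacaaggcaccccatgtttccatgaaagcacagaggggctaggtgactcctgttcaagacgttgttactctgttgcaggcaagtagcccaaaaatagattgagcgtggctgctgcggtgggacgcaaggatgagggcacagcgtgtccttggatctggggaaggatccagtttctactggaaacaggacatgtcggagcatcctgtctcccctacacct
Rbms2 start 1: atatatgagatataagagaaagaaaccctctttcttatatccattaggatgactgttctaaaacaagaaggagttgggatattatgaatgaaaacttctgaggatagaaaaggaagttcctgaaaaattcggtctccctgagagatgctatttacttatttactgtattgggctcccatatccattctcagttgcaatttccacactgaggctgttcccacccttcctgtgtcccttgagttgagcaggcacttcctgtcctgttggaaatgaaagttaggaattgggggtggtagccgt
Rbms1 start 2 held 49 CpG dinucleotides and 6 GC boxes, and start 1 held 26 CpG and 2 GC boxes, where the median of all 32851 RefSeq promoter windows was 7 CpG. Rbms3 start 1 held 7 CpG, no GC box and 1 Tcf/Lef match, and Rbms2 start 1 held 2 CpG and neither motif. The Rbms windows not printed, Rbms3 start 2 at chr9:117252434-117252733 with 7 CpG and Rbms2 start 2 at chr10:128176519-128176818 with 5 CpG, held neither motif. Members that were not called also had CpG-rich windows with GC boxes. Igf2bp2 held 47 CpG and 2 GC boxes, and the Msi2 windows held 37 to 39 CpG and 2 to 3 GC boxes. Of all windows of this length 35.7% held the GC box letters and 16.0% the Tcf/Lef letters. A match of letters is not a bound site, and its absence from this window says nothing of the factor.

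The Igf2bp family was led by Igf2bp2, the member that stays on in many adult tissues. Igf2bp2 (ENSMUSG00000033581, chr16:22059009-22163299, minus strand) was at 15.1, 13.9, 11.6 and 9.58 CPM in the controls and 11.9, 11.4, 13.55 and 7.73 CPM in the knockouts. The groups overlapped, with a log2 fold change of -0.18 (SE 0.24, adjusted p = 0.9655). It made up 85.0% to 90.5% of the family per base of length in the controls and 77.3% to 91.0% in the knockouts.

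Igf2bp1 (ENSMUSG00000013415, chr11:95957163-96005940, minus strand), which protects Myc mRNA from decay, was counted 14, 16, 9 and 9 times in the controls and 10, 9, 9 and 12 times in the knockouts. Its means were 0.919 ± 0.246 and 0.726 ± 0.239 CPM (SD, n = 4 each), and the log2 fold change was -0.37 (SE 0.48, adjusted p = 0.9652). The difference was smaller than its SE, on 9 to 16 counts a library.

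Igf2bp3 (ENSMUSG00000029814, chr6:49085223-49214957, minus strand), a fetal and tumour-associated member, had 27, 22, 8 and 13 counts in the controls and 14, 17, 31 and 19 in the knockouts. That is 1.70, 1.75, 0.720 and 1.03 CPM against 0.834, 0.979, 3.65 and 1.16 CPM, so that knockout 3 alone was above the highest control. The log2 fold change was 0.29 (SE 0.57, adjusted p = 0.9821) and turned to -0.40 (SE 0.48, adjusted p = 0.8176) without knockout 3. Of its exon bases, 18.74% are shared with Malsu1 on the opposite strand, and the strand setting of the counting is not given in the sources used here, so its counts may include reads of that gene.

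Lin28a and Lin28b were near the floor of detection. Lin28a (ENSMUSG00000050966, chr4:134003330-134018841, minus strand) was counted 2, 2, 0 and 0 times in the controls and 0, 0, 2 and 0 times in the knockouts. Lin28b (ENSMUSG00000063804, chr10:45376620-45486395, minus strand) had 17, 2, 1 and 2 counts in the controls and 1, 14, 0 and 1 in the knockouts. One library of each group thus held most of the Lin28b counts. Neither gene passed the filter on low counts, and a count of 0 allows up to 3 counts, which is 0.173 to 0.353 CPM depending on the library. Without the filter the log2 fold changes were -0.66 (SE 1.44, adjusted p = 0.9231) for Lin28a and -0.58 (SE 1.04, adjusted p = 0.8864) for Lin28b. Of the exon bases of Lin28a, 5.86% are shared with Gm13061 on the opposite strand.

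The let-7 miRNAs, which these libraries do not measure, share a seed that is shown with its matches in the members. Of 11 RefSeq mature names of the mouse family, 10 have the same seed (bases 2 to 8, in capitals), and let-7j differs.
mmu-let-7a-5p: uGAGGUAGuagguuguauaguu
mmu-let-7g-5p: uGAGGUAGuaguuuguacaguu
mmu-miR-98-5p: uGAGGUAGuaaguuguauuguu
mmu-let-7j: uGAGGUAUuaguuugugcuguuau
In the longest annotated 3' UTR of each gene the complement of the shared seed, CTACCTC, was searched on the strand of the transcript. It stood 4 times in Igf2bp1, 4 times in Lin28b, 2 times in Lin28a and once each in Igf2bp2, Igf2bp3 and Rbms1, and was not found in Rbms2, Rbms3 and Msi2. Of all 20961 UTRs searched 8.96% held it. Among UTRs of similar length, 0.333% had as many matches as Igf2bp1, 0.297% as many as Lin28b and 2.07% as many as Lin28a. For the single matches these shares were 12.1% for Igf2bp2, 13.3% for Igf2bp3 and 15.0% for Rbms1. One match of each gene is given on GRCm38, minus strand, 5′ to 3′, with the seed match in capitals. They lie at chr11:95961772-95961797 for Igf2bp1, chr16:22059467-22059492 for Igf2bp2, chr6:49086781-49086806 for Igf2bp3, chr4:134005183-134005208 for Lin28a, chr10:45381016-45381041 for Lin28b and chr2:60751077-60751102 for Rbms1.
Igf2bp1 match 1: gtgcgaagtaaaCTACCTCaaggtgt
Igf2bp2 match 1: cacaaataaaagCTACCTCaggtgtt
Igf2bp3 match 1: atttttactcaaCTACCTCaggtatt
Lin28a match 1: cagcctgttgaaCTACCTCatttttg
Lin28b match 1: cgggcgggaagtCTACCTCatgcaag
Rbms1 match 1: gtgatcagttatCTACCTCagaggct
Of all 13 matches in the members, 9 are followed by an A, among them the 6 printed, 3 of the 4 in Igf2bp1 and 1 of the 4 in Lin28b. The matches are letters in the reference and no measure of repression.

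Msi2 (ENSMUSG00000069769, chr11:88339382-88718513, minus strand) was the most abundant member in the controls. It was at 31.4, 27.9, 18.9 and 21.1 CPM in the controls and at 26.3, 22.3, 17.0 and 17.6 CPM in the knockouts, and the groups overlapped (log2 fold change -0.25, SE 0.22, adjusted p = 0.9156). Its libraries were ordered by library set, the run of label numbers to which controls 1 and 2 and knockouts 1 and 2 belong. These 4 libraries lay between 22.3 and 31.4 CPM and the other 4 between 17.0 and 21.1 CPM, without overlap, which 446 of the 13439 genes tested showed in this direction (3.32%). In a fit of genotype and set, a contrast that did not serve to choose the members, Msi2 differed by -0.53 on the log2 scale (SE 0.15, edgeR quasi-likelihood adjusted p = 0.3111), lower in the second set. None of the 7 members tested passed for the set, and DESeq2 called none, while 13 of 13439 genes were called (0.0967%). At an unadjusted p under 0.05 was 1 of the 7, Msi2, against 10.1% of all genes tested, so the share among the members was near the background. What the sets stand for is not given in the sources used here. Msi1, the paralogue that marks crypt base cells, was at 11.4 ± 3.07 CPM in the controls and 8.24 ± 3.54 CPM in the knockouts (SD, n = 4 each, log2 fold change -0.45, SE 0.35, adjusted p = 0.9123).

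**Figure D4:**
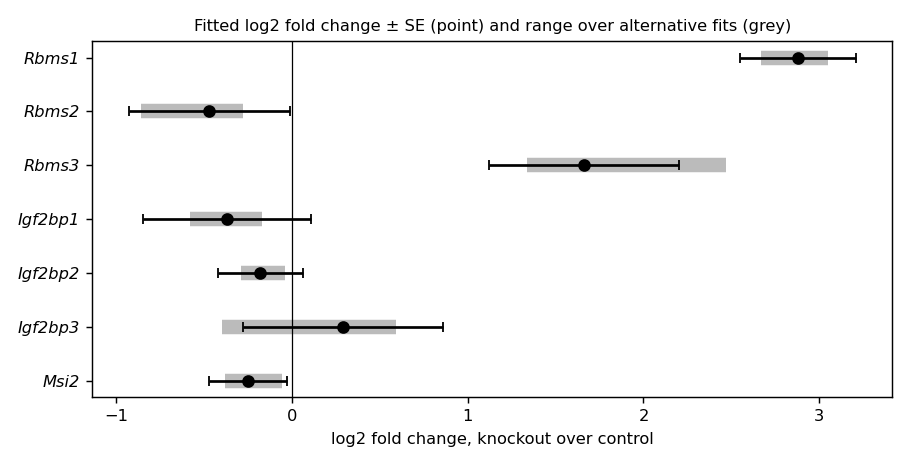
Fitted log2 fold change of knockouts over controls (x axis) for the 7 members that passed the filter on low counts, as points with SE, and the range over the alternative fits in grey. Rbms1 stays between 2.67 and 3.05 and Rbms3 between 1.34 and 2.47, while the range of Igf2bp3 crosses 0, from -0.40 to 0.59.

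Divided by gene length, the order of the members differed between the genotypes. In the controls the mean levels per kilobase were 2.39 CPM for Msi2, 1.76 for Igf2bp2, 0.535 for Rbms2, 0.524 for Rbms3 and 0.411 for Rbms1. They went on with 0.159 CPM per kilobase for Igf2bp3, 0.0949 for Igf2bp1, 0.0407 for Lin28b and 0.0178 for Lin28a. The 3 Rbms genes did not differ from each other, as neighbours in this order, beyond the larger SD, nor did Lin28b and Lin28a. In the knockouts Rbms1 was first, at 3.03 CPM per kilobase, above Msi2 (2.00) in all 4 libraries. Rbms3 (1.65) came next and did not differ beyond the larger SD from Msi2 above it or from Igf2bp2 (1.56) below it. Rbms2 (0.380), Igf2bp3 (0.203) and Igf2bp1 (0.0750) followed, again within the larger SD of each neighbouring pair, and Lin28b and Lin28a were last. With the length of the longest transcript in place of all exon bases, the levels of Msi2 became 3.86 and 3.23 CPM per kilobase and that of Rbms1 in the knockouts 3.74.

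Of the 16 genes of let-7 processing and Lin28 partners, among them Ddx5 and Dicer1, none was called (median log2 fold change -0.06), and 1 had an unadjusted p under 0.05. Of 18 let-7 targets tested, of 19 listed, none was called (median -0.07) and 1 had an unadjusted p under 0.05. Of the 18 m6A writers, erasers and readers none was called (median -0.01), and of 43 other mRNA-binding proteins tested, of 52 listed, none was called (median -0.03). In both of these lists no gene had an unadjusted p under 0.05. Over all genes tested the median was 0.01. DESeq2 called none of the genes in these 4 lists.

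Of the 10 mRNAs listed as bound by Igf2bp proteins, 7 were tested and 1 was called higher, H19, with a list median of 0.02. H19, the imprinted fetal noncoding RNA, was counted 0, 1, 0 and 0 times in the controls and 160, 175, 40 and 254 times in the knockouts, without overlap. It passed the filter on low counts through the knockouts alone, so a tested H19 had to differ, and its call is given as a description. The same gene is the 1 called among 3 tested of 9 other oncofetal genes, where Hmga2 was at 5.31 ± 1.49 and 5.01 ± 3.79 CPM (SD, n = 4 each). Myc was at 9.05 ± 2.44 CPM in the controls and 7.44 ± 1.61 CPM in the knockouts (log2 fold change -0.28, SE 0.27, adjusted p = 0.9387). Of the 7 genes of the Musashi list, none was called (median 0.08, none at an unadjusted p under 0.05, and none called by DESeq2).

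**Figure D5:**
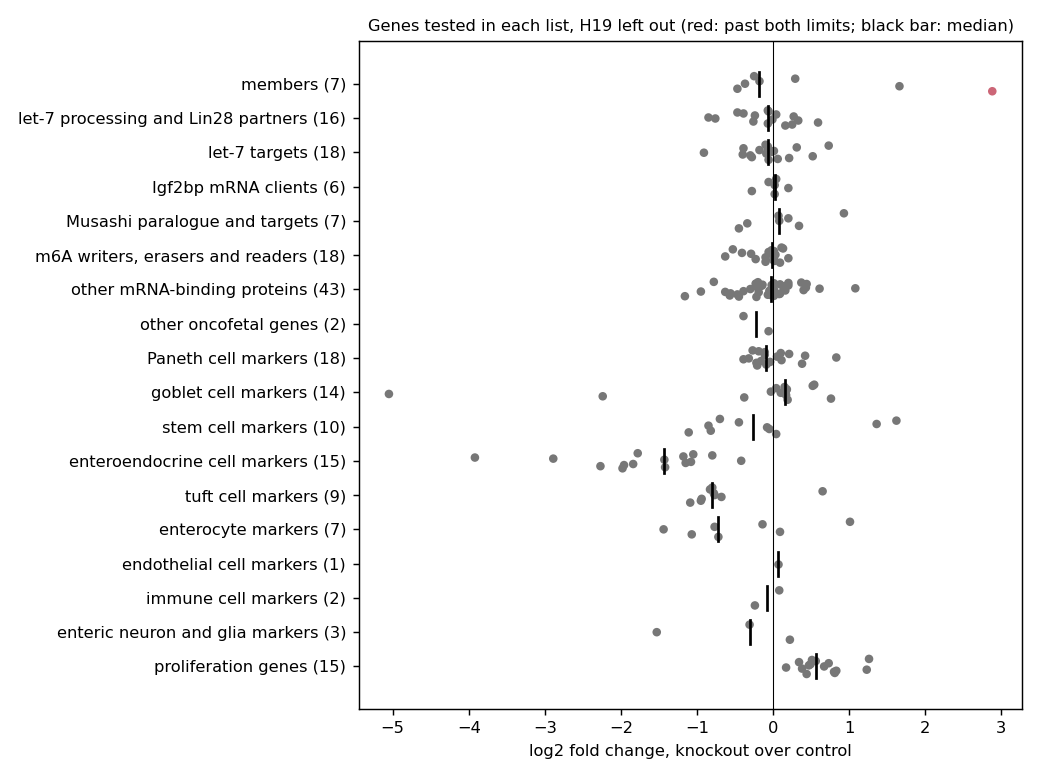
Fitted log2 fold change of knockouts over controls (x axis) of each tested gene in the lists (y axis, number plotted in parentheses), with H19 left out because it had at most 1 count in each control. Red marks genes called, black bars are list medians. Rbms1, at 2.88, is the single red point.

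The genes whose pattern over the 8 libraries was most like that of Rbms1 were Notum, S100a6 and Sorcs2. Their Pearson r was 0.987, 0.985 and 0.979, on log2 (CPM + 1), and 0.832, 0.775 and 0.917 over deviations from the genotype means. Notum, a Wnt deacylase, had 5, 4, 10 and 10 counts in the controls and 341, 386, 96 and 233 in the knockouts. S100a6, a calcium-binding protein, was at 5.79 ± 3.13 CPM in the controls and 131.2 ± 41.3 CPM in the knockouts (SD, n = 4 each). Being picked for their likeness to Rbms1, these genes had to follow the genotype as it does, so no test of them is given. For Rbms3 the genes were Tmem229b (0.963), Ifitm1 (0.949) and Mrps27 (0.942). Ifitm1 was at 9.44 ± 10.9 CPM in the controls and 78.7 ± 43.8 CPM in the knockouts (SD, n = 4 each). For Rbms2 they were Dr1 (0.968), Dqx1 (0.957) and Naa30 (0.956), for Igf2bp1 Pkdcc (0.986), Tut7 (0.984) and Sfi1 (0.976), and for Igf2bp2 CT010467.1 (0.972), Etfb (0.966) and Cops9 (0.966). For Igf2bp3 they were Nxn (0.987), Cic (0.979) and Gm42449 (0.979), and for Msi2 Hmx2 (0.975), Adcy5 (0.973) and Mbd6 (0.971). Tut7 is a uridylyltransferase that acts on let-7 precursors. These r are the largest among 13439 genes over 8 libraries that share scaling factors and library sets, and are given as a description. Between Rbms1 and Rbms3 r was 0.83, and 0.60 over the deviations from the genotype means. Over those deviations r with Rbms1 was 0.73 for Rbms2, -0.99 for Igf2bp1, -0.87 for Igf2bp3, -0.52 for Igf2bp2 and 0.05 for Msi2. Over the 8 libraries themselves it was -0.27, -0.66, -0.10, -0.43 and -0.38 in that order. Knockout 3, with the least Rbms1 of the knockouts and the smallest TMM-scaled library size, weighs on the deviations. Igf2bp1 rests on 9 to 16 counts a library, so these r are a description too.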

How the data were processed

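RNA of sorted Paneth cells was sequenced by Smart-seq2 from 8 mice, 4 per genotype, as the study states. Per the study's methods, the authors aligned reads to mm10 with GSNAP and used featureCounts 1.6.3 to count those mapped uniquely to Ensembl genes. The deposited values are raw counts, not normalized. The 92 spike-in rows (at most 11 counts a library) were left out. The groups follow the genotype each label gives, and replicate numbers are names that pair no samples. One animal number stands in the labels of both control 4 and knockout 4, and was left unused. The labels alone thus do not settle that these 2 libraries came from different animals. No 2 libraries were alike within sampling noise (smallest chi-square per degree of freedom 10.78). The main test was that of edgeR 4.0.16 in R 4.3.3 (TMM factors, robust quasi-likelihood fit over the 13439 genes kept by filterByExpr, minimum count 10 and minimum total 15), checked on simulated data. Normalized CPM were computed from the deposited counts and TMM-scaled library sizes. The SE is the size of the log2 fold change divided by the square root of F. Calls needed a Benjamini-Hochberg adjusted p no larger than 0.05 and a log2 change no smaller than 0.5. DESeq2 1.42.0, limma 3.58.1 (voom), other scalings and filters, a library set block, a Y-linked covariate and leaving out each library were alternatives. The members and all gene lists were chosen with earlier results of these data known. Named genes were the members, the called genes of each list or otherwise up to 4 of its most abundant, and the 3 genes most like each member. Sequences are from RefSeq (GRCm38.p6), and UTRs (the longest per gene) from GENCODE M21, where similar length means within the bounds 0.8 and its inverse. Libraries held 13037832 to 14380240 counts, and 3 counts are 0.173 to 0.353 CPM of the TMM-scaled library sizes, which run from 8487423 to 17362590. Proteins were not used here.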

Additional observations from a re-analysis of the deposited data

Results flagged for a closer look

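There were 3 values that stood far from the other libraries of their group, and 1 more that passes the limit through zeros alone, among 18 groups of 4 libraries examined, where chance alone gives about 1 in 20. Igf2bp3 in knockout 3 was at 3.65 CPM with the nearest knockout at 1.16 CPM, a gap of 0.886 of the group's range. Knockout 3 is the library with the fewest genes counted and with 148 Y-linked counts beside 1037 Xist counts. The part of these in the value was not tested. Lin28b in control 1 was at 1.07 CPM with the nearest control at 0.159 CPM, a gap of 0.929 of the range. Lin28b in knockout 2 was at 0.806 CPM with the nearest knockout at 0.0608 CPM, a gap of 0.925. These 2 values rest on 17 and 14 counts, with the other libraries of their groups at 0 to 2 counts. So near the floor, the chance rate may not apply to them. Lin28a in knockout 3 was at 0.236 CPM, on 2 counts, with the other 3 knockouts at 0. Its gap of 1.0 of the range follows from the tied zeros for any count above 0, the chance rate does not apply to it, and 2 counts are within the 3 that a count of 0 allows, so it does not stand apart.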

How the results depend on the processing

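Rbms1 was called under every alternative run, with a log2 fold change of 2.67 to 3.05 and, with 1 library left out at a time, an adjusted p of 0.0001463 to 0.02238. The number of members called was 1 in all of them except without a filter on low counts, where it was 2, with Rbms3 added. Rbms3 ranged from 1.34 to 2.47, the highest being without control 3. Igf2bp3 turned to -0.40 without knockout 3 and to -0.25 under limma-voom, and the cause was not tested. The number of genes called between genotypes, 25, was 38 at a 10% false discovery rate with no fold limit, 290 without a filter, 13 with at least 10 counts in every library, 138 with DESeq2, 95 with limma-voom and 10 with the Y-linked covariate. With 1 library left out it ran from 10 to 152, the 152 being without knockout 3 and the 10 without control 3; it was 11, 12 and 15 without controls 1, 2 and 4 and 11 without knockout 2. Between library sets, 13 genes were called, 184 with DESeq2 and 325 without a filter. With the library set as a block, 24 genes were called. With the longest transcript in place of all exon bases, the levels per kilobase became 0.727 CPM for Rbms2 in the controls, 2.54 and 2.25 for Igf2bp2 and 0.299 and 0.381 for Igf2bp3 in controls and knockouts. No paired analysis was run. The study describes the mice of the 2 genotypes as littermates, but the litter of each library is not given in the sources used here. Replicate numbers were given in accession order and pair no samples. Rbms2, Igf2bp1 and Igf2bp3 rest on 8 to 50 counts a library, which limits the precision of their fold changes, and Lin28a and Lin28b did not pass the filter on low counts.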
